A study of Homo sapiens with 27 samples.

Results

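Insertions that fell only in noncoding RNA genes were described across 27 libraries of self-reporting transposon insertions in HCT116, an established human colorectal carcinoma cell line. A site was a member when it lay on an autosome, inside a RefSeq GRCh38 gene that is neither protein-coding nor a pseudogene, and outside every protein-coding gene extended by 5 kb on both sides. The position of a site was the 5′ edge of its peak, moved by 3 bases for peaks on the minus strand, and each position was counted once per library. Over all libraries 327374 distinct positions of 2884349 autosomal positions were members. Another 1659593 positions lay in extended coding genes and 897382 lay outside both kinds of gene. Of the 21903 autosomal noncoding genes in the annotation, 13659 had bases free of extended coding genes, together 339.849 Mb of genome, and 10218 of them held at least 1 site. Nearly all members lay in genes of the biotype lncRNA.

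The libraries formed 9 groups of 3 replicates. Cells carrying a wild-type transposon received piggyBac (WT_PB), its hyperactive form (WT_hyPB), the re-engineered form of either (WT_rePB and WT_rehyPB) or piggyBat (WT_PBat), a related transposase from a bat. A short transposon was combined with wild-type piggyBac (short_PB) or hyperactive piggyBac (short_hyPB), and a symmetric transposon with the re-engineered form of piggyBac (sym_rePB) or of hyperactive piggyBac (sym_rehyPB). The labels do not say what short, symmetric and re-engineered stand for, nor whether the replicates were separate transfections, so the p-values measure only the spread between these libraries. All cells were selected for 2 weeks with puromycin at 3 µg/ml, and insertions were read from RNA that starts in the transposon and runs into the neighbouring genome. Insertion positions carry no expression level, so the cell line was not checked against markers.

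The piggyBac transposase cuts a transposon out of DNA and inserts it into a new place at the tetranucleotide TTAA. Insertions of piggyBac are known to be frequent in open chromatin and near active promoters and enhancers. Long noncoding RNAs are transcripts without a known protein product, and many of their genes start at enhancers, run divergently from the promoter of a coding gene, or host small RNAs such as microRNAs.

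The 300-base RefSeq promoter windows (GRCh38.p14, 250 bases before to 50 after a start) show how target sites lie at noncoding gene starts. Capitals mark TTAA, which reads the same on both strands. Of 6575 windows of noncoding genes outside extended coding genes, 65.0% held at least 1 TTAA, against 46.2% of all 33558 autosomal windows and 40.3% of the windows of coding genes. Of 9252 copies of TTAA in these noncoding windows, 1991 carried an insertion in at least 1 library. The 5 windows shown were chosen after their values were seen. They show a start hit in most libraries, the inner start of the gene with most piggyBat insertions, and a start hit mainly in deep libraries. The others are a well-known lncRNA and a start with many target copies and no insertion.
LOC105379083, chr5:93162438-93162737, minus strand: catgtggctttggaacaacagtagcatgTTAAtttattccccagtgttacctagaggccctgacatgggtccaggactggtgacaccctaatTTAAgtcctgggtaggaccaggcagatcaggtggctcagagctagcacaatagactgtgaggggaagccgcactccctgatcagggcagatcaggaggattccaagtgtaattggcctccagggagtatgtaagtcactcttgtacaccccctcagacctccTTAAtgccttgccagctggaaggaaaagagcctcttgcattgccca
LINC-PINT inner start, chr7:130913261-130913560, minus strand: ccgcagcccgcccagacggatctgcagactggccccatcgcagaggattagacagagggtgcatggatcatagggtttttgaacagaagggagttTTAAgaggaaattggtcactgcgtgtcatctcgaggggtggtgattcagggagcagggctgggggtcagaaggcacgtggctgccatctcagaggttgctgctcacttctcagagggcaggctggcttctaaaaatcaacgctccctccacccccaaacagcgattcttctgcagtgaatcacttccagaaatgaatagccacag
LINC00973, chr3:98914316-98914615, plus strand: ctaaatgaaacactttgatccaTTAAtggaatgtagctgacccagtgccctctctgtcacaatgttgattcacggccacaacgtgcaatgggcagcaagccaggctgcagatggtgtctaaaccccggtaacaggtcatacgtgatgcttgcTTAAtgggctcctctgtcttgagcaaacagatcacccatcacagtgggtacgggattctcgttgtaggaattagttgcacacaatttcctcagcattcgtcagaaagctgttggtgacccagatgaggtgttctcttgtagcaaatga
MALAT1, chr11:65498795-65499094, plus strand: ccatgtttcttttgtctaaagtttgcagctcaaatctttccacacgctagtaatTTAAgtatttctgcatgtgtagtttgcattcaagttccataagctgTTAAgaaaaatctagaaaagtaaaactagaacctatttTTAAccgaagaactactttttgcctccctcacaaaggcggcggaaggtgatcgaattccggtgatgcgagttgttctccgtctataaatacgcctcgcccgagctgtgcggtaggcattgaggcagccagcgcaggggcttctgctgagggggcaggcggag
LOC105375473, chr7:118502730-118503029, plus strand: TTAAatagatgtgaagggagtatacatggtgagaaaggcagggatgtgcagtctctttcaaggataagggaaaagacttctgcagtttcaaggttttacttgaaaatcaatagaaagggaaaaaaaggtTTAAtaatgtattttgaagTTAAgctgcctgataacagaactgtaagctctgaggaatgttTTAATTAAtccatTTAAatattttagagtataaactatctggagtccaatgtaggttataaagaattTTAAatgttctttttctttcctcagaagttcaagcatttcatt

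In these 5 windows every insertion lay on a TTAA and none lay elsewhere. In LOC105379083 the copy 4 bases after the start was hit in 17 libraries of the 8 piggyBac groups and in no WT_PBat library, and each of the other two copies was hit in 1 library. The single copy at the inner LINC-PINT start was hit in 11 of the 12 deep libraries and in no shallow one. In LINC00973 the copies 228 and 98 bases before the start were hit in 11 and 12 libraries. In MALAT1 the copies 196, 150 and 112 bases before the start were hit in 2, 3 and 7 libraries. The window of LOC105375473 held 7 copies and no insertion in any library.

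Sequencing depth split the libraries into 2 sets. The 12 deep libraries of WT_PB, WT_hyPB, WT_rePB and WT_rehyPB had file totals of 8118085 to 12051190, taken as mapped reads, and 329453 to 558486 autosomal sites each. The 15 shallow libraries had totals of 142666 to 256608 and 2795 to 9077 sites. Only peaks of at least 5 in height were listed, and no molecular identifiers mark PCR duplicates among the reads behind a height, so the shallow libraries list the tallest part of their insertions. Some libraries shared positions far beyond the others: WT_hyPB replicates 1 and 2 had 76.9% of the smaller library's noncoding positions in common, and WT_PBat replicates 1 and 3 had 56.1%, against 7.07% to 30.0% for all other replicate pairs of a group. The tests of shares and the counts of called genes that rest on these groups are also given with the linked libraries averaged. P-values of single genes, and of tests of whether pairs of groups differ in an effect, take the linked libraries as separate replicates.

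Noncoding RNA genes took about the same share of insertions with all 4 piggyBac transposases on the wild-type transposon, and a lower share with piggyBat in every library. The members made up 11.3%, 11.4% and 11.4% of the autosomal sites in the 3 WT_PB libraries. They made up 6.89%, 6.37% and 6.59% in WT_PBat, where all libraries lay below every piggyBac library. WT_hyPB held 11.5% ± 0.0046, WT_rePB 11.4% ± 0.0127 and WT_rehyPB 11.1% ± 0.106 (SD, n = 3 each). The groups of the other transposons lay between: short_PB held 10.1%, 9.38% and 10.3%, short_hyPB 11.4%, 11.01% and 10.8%, sym_rePB 10.1% ± 0.0333 and sym_rehyPB 9.70% ± 0.223 (SD, n = 3).

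**Figure D1:**
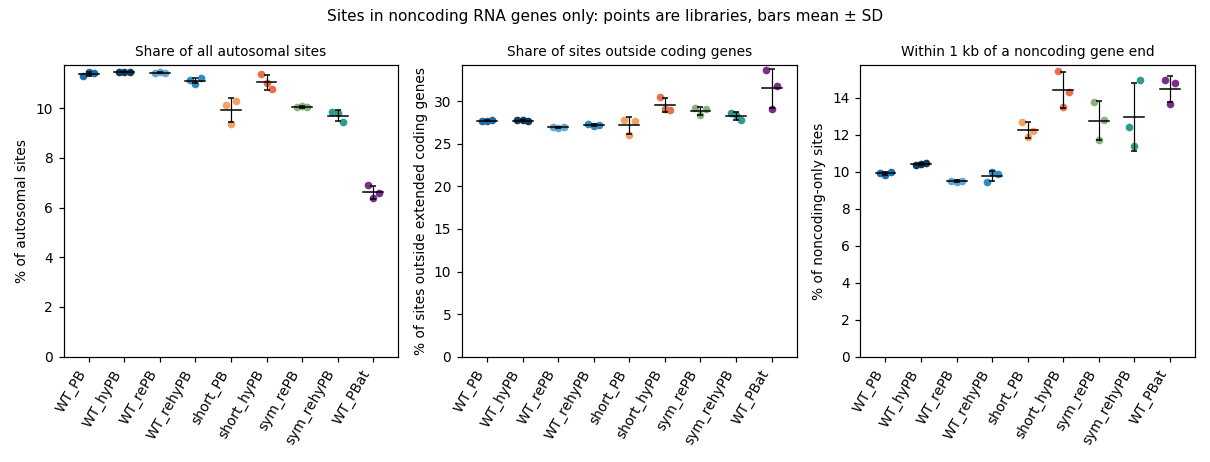
Shares of insertion sites in noncoding RNA genes only, one point per library with the group mean ± SD (n = 3); the panels give percent of autosomal sites, percent of sites outside extended coding genes, and percent of member sites within 1 kb of a noncoding gene end. The 3 WT_PBat libraries lie between 6.37% and 6.89% of autosomal sites, below all piggyBac libraries, but reach the highest shares outside coding genes.

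For 3 shares, 6 contrasts were tested by exact two-sided permutation of libraries within pairs of groups, with Benjamini-Hochberg adjustment over the 18 tests. The noncoding share was 4.76 percentage points lower in WT_PBat than in WT_PB and 3.31 points lower than in short_PB, a group of like depth, with p = 0.1 in both exact tests, the smallest that 3 against 3 libraries allow (adjusted p = 0.12). These comparisons share the WT_PBat libraries. With the linked libraries averaged the differences were -4.82 and -3.37 points, and no test of a share changed its side of the threshold. The noncoding share was lower with the short than with the wild-type transposon, with a mean difference of -0.94 points over its pairs (exact permutation p = 0.005, adjusted p = 0.0129). With the symmetric transposon the difference was -1.39 points (exact permutation p = 0.005, adjusted p = 0.0129). Each of these contrasts sets shallow against deep libraries. With peak heights thinned to a common file total the differences were -2.66 and -1.96 points (adjusted p = 0.0225 in each exact permutation test). This matched the reads but not the sites: thinned WT_PB libraries kept 655 to 1020 autosomal sites against 7057 to 8896 in short_PB, and thinned WT_rePB 650 to 729 against 2350 to 2967 in sym_rePB. Among peaks of height 10 or more the symmetric difference was reversed, at 0.661 points, and passed the test (adjusted exact permutation p = 0.018). The short one was -0.787 points there, with an adjusted exact permutation p of 0.0771.

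Neither change to the transposase gave a difference in noncoding share that passed the test. The hyperactive minus parental difference averaged 0.13 points over 4 pairs (exact permutation p = 0.458, adjusted p = 0.458), and the re-engineered minus unmodified difference averaged -0.16 points over 2 pairs (exact permutation p = 0.08, adjusted p = 0.12). The pairs behind the hyperactive mean went different ways. The difference was 0.0812 points on the wild-type transposon, -0.327 points in the re-engineered background, 1.11 points on the short transposon and -0.351 points on the symmetric one.

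With piggyBat, coding genes were denser and noncoding genes sparser than with piggyBac. Sites in extended coding genes had a density of 4.42 ± 0.0206 per Mb and 10000 autosomal sites in WT_PB and of 5.92 ± 0.0591 in WT_PBat (SD, n = 3). The noncoding density was 3.35 ± 0.0234 in WT_PB and 1.95 ± 0.0768 in WT_PBat. The ratio of noncoding to coding density was 0.757 in WT_PB, 0.614 in short_PB and 0.329 in WT_PBat. Against the sequence within 20 kb of the noncoding genes and outside any gene, the noncoding density was 0.927-fold in WT_PB, 0.733-fold in short_PB and 0.808 ± 0.111-fold in WT_PBat. In every group the bodies of noncoding genes thus held fewer sites per Mb than their flanks on average.

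Among sites outside extended coding genes, the part in noncoding genes was 27.7%, 27.7% and 27.8% in WT_PB and 33.7%, 29.0% and 31.8% in WT_PBat, so piggyBat was the higher one on this scale. The difference was 3.79 points against WT_PB and 4.36 points against short_PB (exact permutation p = 0.1 each, the smallest possible, adjusted p = 0.12). With the sites of 1 gene, LINC-PINT, left out, the share was 27.5% in WT_PB and 27.6% ± 1.67 in WT_PBat. The re-engineered transposase lowered this share by -0.67 points (exact permutation p = 0.005, adjusted p = 0.0129), in both of its pairs. The symmetric transposon gave 1.502 points more (exact permutation p = 0.005, adjusted p = 0.0129), but -0.0222 points without LINC-PINT and 0.590 points at matched file totals. The short transposon gave 0.61 points (exact permutation p = 0.385, adjusted p = 0.408).

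The share of members within 1 kb of either end of a noncoding gene was 9.95%, 9.82% and 10.003% in WT_PB. Among the other deep groups it averaged 10.4% in WT_hyPB, 9.50% in WT_rePB and 9.79% in WT_rehyPB. The shallow groups all lay higher, with means of 14.5% in WT_PBat, 12.3% in short_PB, 12.8% in sym_rePB, 14.4% in short_hyPB and 12.9% in sym_rehyPB. Re-engineering lowered it by -0.53 points (exact permutation p = 0.005, adjusted p = 0.0129), and by -0.520 points at matched file totals. The short and symmetric transposons had 3.17 and 3.22 points more (exact permutation p = 0.005, adjusted p = 0.0129 each). At matched file totals the differences were -0.284 and -0.0388 points.

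The densest noncoding genes were ranked among the 6058 genes with at least 10 kb of free length, by member sites per 100 kb of that length and per 10000 autosomal sites, averaged over the 9 groups. The 10 densest were CCAT1, LINC-PINT, ERRFI1-DT, ARHGAP29-AS1, LOC105370364, LOC105372672, LINC02454, LINC00973, LOC105369844 and CASC21. The tenth had a mean density of 9.81 and the eleventh, LINC02535, 8.77. In WT_PB the median gene had a density of 0.253 and the 99th percentile was 2.25, so these genes lay far in the upper tail. Their rank follows from the measured values and is a description, with no test.

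CCAT1 is a lncRNA gene of the MYC enhancer region on chromosome 8 (127207382 to 127219268). Among the ranked genes it was the densest in all 8 piggyBac groups, with 8.99 ± 1.01 in WT_PB and 78.1 ± 36.5 in sym_rehyPB (SD, n = 3). These values rest on 41 to 43 sites per library in WT_PB but 2 to 5 in sym_rehyPB. In WT_PBat CCAT1 ranked 107th at 3.22 ± 5.58. ERRFI1-DT (chr1:8026493-8127070, plus strand) is the divergent transcript of ERRFI1, which encodes a feedback inhibitor of the EGF receptor. Its density was 5.31 in WT_PB, 46.1 in sym_rePB and 6.52 in WT_PBat. ARHGAP29-AS1 (chr1:94247868-94334806) had 7.57 in WT_PB over its 15.2 kb of free length. LOC105370364 (chr13:110945456-110971665) had 4.28 in WT_PB and no site in any WT_PBat library. LOC105372672 (chr20:53608354-53634590), 10.7 kb from ZNF217, had 4.05 in WT_PB. LINC02454 (chr12:65602869-65612987) lies inside MSRB3-AS1 and shares its sites with it; its density was 7.03 in WT_PB. LINC00973 (chr3:98914566-98998841) had 5.23 and LOC105369844 (chr12:75524261-75834768), an uncharacterised gene, 4.97.

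For some of these genes the density in the deep WT_PB libraries was higher among taller peaks. Whether this accounts for their high densities in shallow groups was not tested. In WT_PB the density of LINC-PINT was 2.33 ± 0.449 among peaks of height 5 to 6 and 16.2 ± 1.30 among peaks of height 50 or more (SD, n = 3). CCAT1 went from 3.70 to 43.2 and ERRFI1-DT from 2.62 to 22.2 over the same classes. LINC02454 followed no order, with 5.82, 7.16, 4.0005, 11.9 and 7.97 over the 5 classes from low to high. The noncoding share itself lay between 11.2% and 11.6% in all 5 classes. With WT_PB libraries thinned to the smallest total of the short-transposon comparison, LINC-PINT held 89.0 ± 13.1 sites per 10000 in place of 9.56 ± 0.284. Thinning leaves the tallest peaks of a deep library, and far fewer sites than a shallow library holds, so thinned values are given beside differences of single genes between deep and shallow groups as a description only.

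**Figure D2:**
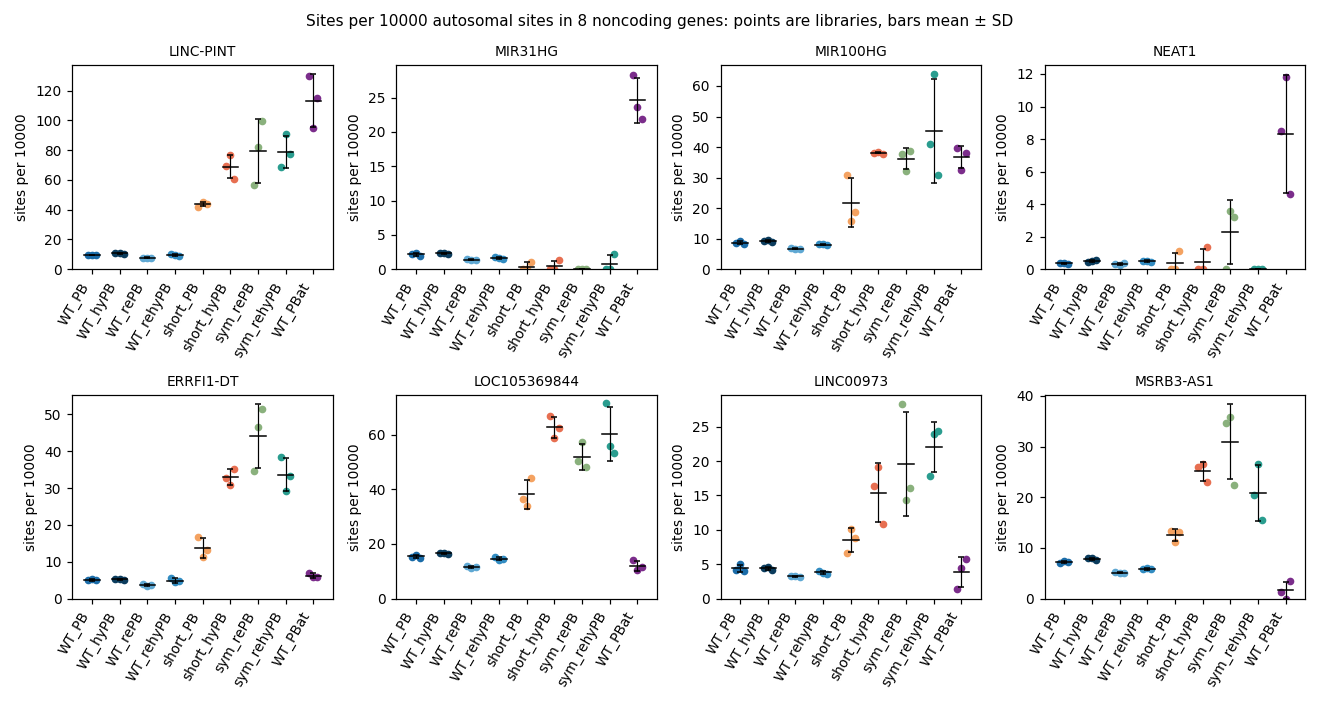
Member sites per 10000 autosomal sites in 8 noncoding genes, one point per library with the group mean ± SD (n = 3) and a separate axis per gene. LINC-PINT, MIR31HG and NEAT1 are highest in WT_PBat, while ERRFI1-DT, LOC105369844, LINC00973 and MSRB3-AS1 are highest in the shallow piggyBac groups and low in WT_PBat.

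LINC-PINT, the gene of a lncRNA induced by p53, took more piggyBat insertions than any other noncoding gene. It spans chr7:130877562-131109925 on the minus strand, 227.532 kb of it free, starts 0.169 kb from the coding gene MKLN1, and contains the noncoding gene LINC00513, which shares its sites. Per 10000 autosomal sites it held 9.36, 9.89 and 9.44 in WT_PB and 10.7, 10.9 and 10.3 in WT_hyPB. The re-engineered transposases gave 7.82, 7.48 and 7.80 in WT_rePB and 10.02, 9.67 and 8.96 in WT_rehyPB. With the short transposon the values were 42.1, 45.0 and 44.1 in short_PB and 69.5, 76.5 and 60.9 in short_hyPB. With the symmetric transposon they were 56.6, 82.3 and 99.7 in sym_rePB and 68.9, 90.5 and 77.4 in sym_rehyPB. WT_PBat held 92, 64 and 100 sites, or 130.0, 94.7 and 114.9 per 10000. All WT_PBat libraries lay above all libraries of short_PB and short_hyPB, and overlapped with the highest library of sym_rePB only.

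LINC-PINT made up 17.04% ± 2.03 of all members in WT_PBat, against 0.840% in WT_PB. Its share of members was 4.41% in short_PB and 6.24% in short_hyPB, and it reached 8.14% in sym_rehyPB and 7.91% in sym_rePB. Against short_PB its log2 difference in WT_PBat was 1.35 with an SE of 0.16 (limma voom over 109 genes, adjusted p = 2.07e-14), and 1.29 with the linked libraries averaged. The median log2 difference over the 109 genes was 0.87. Thinned to one file total, WT_PBat held 118.3 ± 20.6 and short_PB 48.4 ± 11.1 per 10000 (SD, n = 3). Against the deep WT_PB libraries the log2 difference was 3.57. After thinning, WT_PB held 67.7 ± 59.0 on 0 to 5 sites per library against 118.7 ± 21.0 in WT_PBat, so the size of this difference cannot be told apart from the gap in depth. The same holds for the transposon contrasts. The log2 differences of 2.45 for short and 3.22 for symmetric became, after thinning, 44.9 ± 6.08 in short_PB against 89.0 ± 13.1 in WT_PB, and 82.6 ± 22.0 in sym_rePB against 92.3 ± 20.8 in WT_rePB.

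Within LINC-PINT the insertions of all 9 groups were densest in the downstream part. The densest 10-kb stretch lay 200 to 210 kb from the annotated start in WT_PBat and held 20.9% ± 4.01 of its sites in the gene, 16 to 19 per library. It lay at the same place in 3 shallow piggyBac groups, with 21.2% ± 4.82 in short_hyPB, 25.1% ± 3.08 in sym_rePB and 20.9% ± 1.15 in sym_rehyPB. In short_PB and the 4 deep groups it lay 190 to 200 kb from the start, with 16.01% ± 4.91 in short_PB and 10.96% ± 0.571 in WT_PB. Distances are along the direction of transcription, and the inner start shown above lies close to this peak. Insertions of piggyBat also used many of the same target positions: 140 of the 157 distinct WT_PBat positions in the gene (89.2%) were also hit in a deep piggyBac group. For all noncoding members of WT_PBat this share was 75.4% of 1132 positions, and for its other sites 71.3%. For the LINC-PINT positions of the shallow piggyBac groups it lay between 87.5% in sym_rePB and 94.1% in short_PB, so the value in WT_PBat was not particular to piggyBat.

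**Figure D3:**
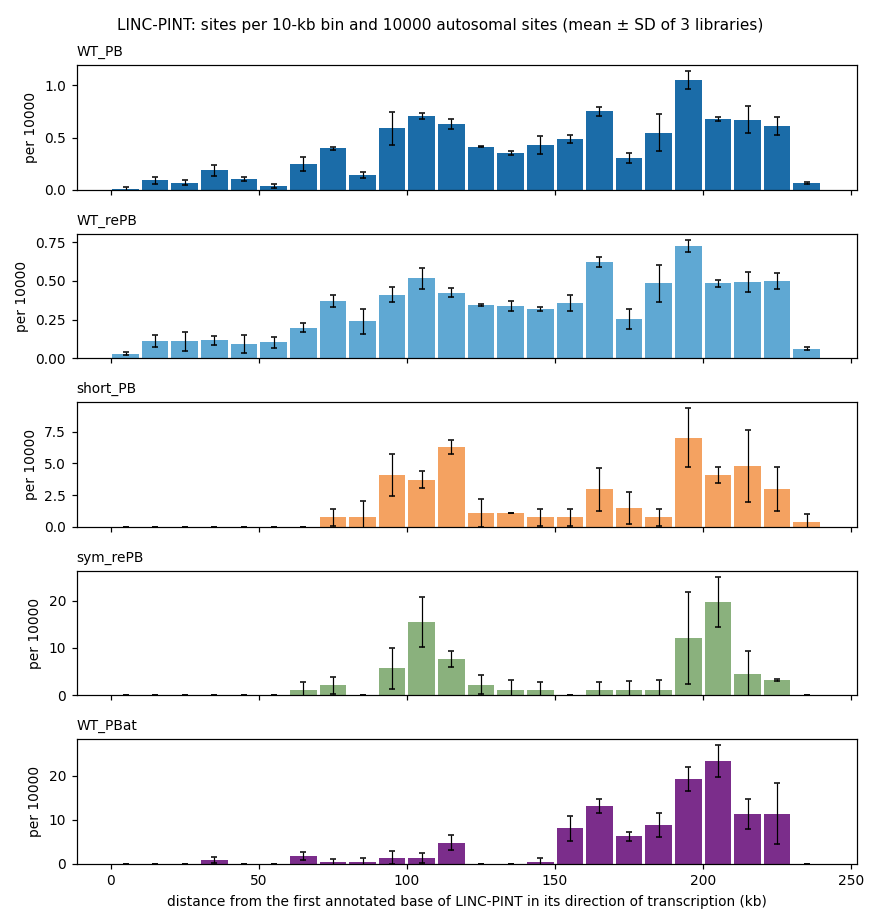
Sites of LINC-PINT in 10-kb stretches along the direction of transcription, per 10000 autosomal sites, as mean ± SD of 3 libraries for 5 groups on separate axes. The highest bar lies at 190 to 200 kb in WT_PB and at 200 to 210 kb in WT_PBat.

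MIR31HG, host gene of the microRNA miR-31 (chr9:21454268-21559798, minus strand), separated piggyBat from all piggyBac groups. WT_PBat had 20, 16 and 19 sites in it, or 28.3, 23.7 and 21.8 per 10000. WT_PB held 2.19, 2.41 and 1.89 and WT_rePB 1.502, 1.36 and 1.32 per 10000. The 12 shallow piggyBac libraries together held only 3 sites, 1 each in short_PB, short_hyPB and sym_rehyPB. The groups did not overlap. Summed over libraries, 55 of 22543 WT_PBat sites and 1 of 27001 short_PB sites lay in the gene, a ratio of 65.9. The exact 95% interval of 11.3 to 2649 takes every site as separate. Positions shared by the linked WT_PBat replicates 1 and 3 count in each of them. MIR31HG was named for its values in these data, so the interval is a description and no test. In contrast to LINC-PINT, MIR31HG was thus low in the shallow piggyBac libraries.

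Of the WT_PBat sites in MIR31HG, 56.7% ± 5.15 lay in the first 10 kb of the gene, and 44.3% ± 2.45 of those in WT_PB did. The strand of the WT_PBat insertions was that of the gene in 78.9%, 68.8% and 77.8% of positions with 1 strand. The mature miR-31-5p, whose seed is in capitals, is encoded inside the gene. No library had an insertion in its hairpin, and within 5 kb of it WT_PB had 3 to 7 sites per library and WT_PBat none.
hsa-miR-31-5p: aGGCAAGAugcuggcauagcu

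MIR100HG, host of miR-100, let-7a-2 and miR-125b-1 (chr11:122028329-122422871, minus strand), was higher per 10000 sites in all shallow groups than in the deep ones before thinning. It held 8.64, 9.15 and 8.32 per 10000 in WT_PB, 31.0, 15.7 and 18.7 in short_PB, and 39.6, 32.5 and 37.9 in WT_PBat. The short_PB and WT_PBat libraries did not overlap, and the log2 difference was 0.80 (limma voom, adjusted p = 0.00095). This was not above the median of 0.87 over all 109 genes of the fit, of which 68.8% were called. Without 1 library the difference of MIR100HG ranged from 0.60 to 1.07 and in 1 of the 6 cases lost its call. After thinning, the values were 20.9 ± 11.8 in short_PB and 38.1 ± 4.84 in WT_PBat. The microRNAs of this host have different seeds, again in capitals. Within 5 kb of the hairpins WT_PB had 37 to 40 sites per library at miR-100, 32 to 39 at let-7a-2 and 9 to 14 at miR-125b-1, and WT_PBat had 2 to 7, 5 to 11 and 0 to 1.
hsa-miR-100-5p: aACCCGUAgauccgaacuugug
hsa-let-7a-5p: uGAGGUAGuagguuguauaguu
hsa-miR-125b-5p: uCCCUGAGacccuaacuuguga

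NEAT1 (chr11:65422798-65445540), the RNA scaffold of nuclear paraspeckles, held 6, 8 and 4 sites in WT_PBat, or 8.48, 11.8 and 4.60 per 10000. It held 0.373, 0.353 and 0.340 in WT_PB, and at most 1 site in any shallow piggyBac library. Among genes with at least 10 kb of free length it ranked second by density in WT_PBat, at 36.5, and 142nd in WT_PB, at 1.56. The summed counts were 18 against 1 in short_PB, a ratio of 21.6 (exact 95% interval 3.404 to 898, with the same limits as for MIR31HG). Its neighbour MALAT1 (chr11:65497738-65506516), a lncRNA of nuclear speckles, had 3, 2 and 4 sites in WT_PBat and 1, 1 and 0 in short_PB. Over its 8.78 kb, too short for the ranking, the WT_PBat density of MALAT1 was 44.8. MALAT1 shares sites with its antisense gene TALAM1.

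Of the MYC-region genes, PVT1 held 14.1, 10.4 and 14.9 per 10000 in WT_PBat and 4.43, 2.25 and 0 in short_PB. CASC21 held 4.24, 5.92 and 4.60 in WT_PBat and 9.97, 12.4 and 19.8 in short_PB, with a log2 difference of -1.36 (limma voom adjusted p = 0.00184). CASC8 had 0, 1 and 0 sites in WT_PBat and 6, 5 and 13 in short_PB. The groups did not overlap in any of the 3 genes, which were named in part for their differences in these data. How many of all genes were separated in this way was not counted, but limma called 68.8% of all 109 tested. PVT1 and CASC8, like MIR31HG, entered the fit only through the group where they were dense, so no p-value is given for them.

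Several genes with many piggyBac insertions held fewer with piggyBat. LOC105369844 held 36.6, 33.7 and 44.1 per 10000 in short_PB and 14.1, 10.4 and 11.5 in WT_PBat (log2 difference -1.61, limma voom adjusted p = 9.35e-09). MSRB3-AS1 (chr12:65466817-65642372), antisense to the methionine sulfoxide reductase gene MSRB3, held 13.3, 11.2 and 13.2 in short_PB and 1.41, 0 and 3.45 in WT_PBat. The ratio of its summed 4 and 34 sites was 0.141 (exact 95% interval 0.0363 to 0.395, with the same limits as for MIR31HG). SLC38A4-AS1 (chr12:46383676-46652579) held 14.4, 12.4 and 12.1 in short_PB, 7.07, 7.27 and 6.79 in WT_PB and 2.83, 4.44 and 3.45 in WT_PBat. The WT_PBat and short_PB libraries did not overlap in any of these 3 genes, which were also named in part for their differences. Beside this, limma called 68.8% of all 109 tested genes in the same comparison. MSRB3-AS1 and SLC38A4-AS1 had too few WT_PBat sites to pass the filter by that group alone and are given without a p-value.

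Over all genes, coding and noncoding, limma voom called 68.8% of 109 tested genes between WT_PBat and short_PB and 94.5% of 91 between WT_PBat and WT_PB. Of noncoding genes, 5 were higher and 8 lower of 14 tested in the first comparison, where 52.3% of all genes were higher and 16.5% lower. In the second, 7 were higher and 1 lower of 10, beside 86.8% and 7.69% of all genes. With TMM scaling, which centres the tested genes, these became 3 higher and 9 lower, and 4 higher and 5 lower. With the linked WT_PBat libraries averaged, 5 were higher and 6 lower of 14, beside 57.8% of 102 genes called in all, and 7 higher and 2 lower of 11, beside 89.7% of 87. In the first comparison 92.9% of the noncoding genes were called and 68.8% of all genes. The filter of 3 expected sites admits genes mostly through the group where they are dense, so these counts are a description and support no difference between noncoding and other genes. The same is true of the transposon contrasts, where 84.8% of 66 genes were called for short (77.3% higher and 7.58% lower), with 13 of 16 noncoding genes, and 95.7% of 23 for symmetric, with 8 of 8. Under TMM scaling these noncoding calls were 10 higher and 4 lower for short and 2 higher and 2 lower for symmetric. Among shallow piggyBac groups 33.3% of 27 genes were called higher with the hyperactive transposase, including the noncoding genes LINC-PINT, ERRFI1-DT, LOC105369844 and MIR100HG. With TMM scaling limma called none, and 1 of 9 noncoding genes had an unadjusted p under 0.05.

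Other genes named by the size of their short-transposon difference were also higher per 10000 sites in the shallow group than in the deep one. SPRY4-AS1, next to the gene of a receptor tyrosine kinase inhibitor, held 2.22, 2.15 and 2.60 per 10000 in WT_PB and 6.65, 7.87 and 7.71 in short_PB. LOC105371024 held 1.52, 1.77 and 1.48 in WT_PB and 2.22, 5.62 and 7.71 in short_PB. ERRFI1-DT held 5.00, 5.30 and 4.95 in WT_PB and 16.6, 11.2 and 13.2 in short_PB, without overlap, but after thinning 70.9 ± 8.91 in WT_PB and 13.7 ± 3.07 in short_PB. For ERRFI1-DT, as for LINC-PINT, the order of the groups was thus the opposite at matched file totals, but on only 4 to 8 sites per thinned WT_PB library and with the unequal numbers of sites given above.

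The deep wild-type transposon groups allowed gene-level comparisons of the transposases without the gap between deep and shallow libraries. The fits held 12576 genes, of which 2879 were noncoding. Site numbers still differed, with 542648 ± 14196 autosomal sites in WT_rePB against 368938 ± 45460 in WT_rehyPB (SD, n = 3). Few genes were called with hyperactive piggyBac: limma voom called 1.12% of all genes, 0.429% higher and 0.692% lower. At an unadjusted limma p under 0.05, 1705 of the 12576 genes passed. In simulated counts this fit recovered 56.8% of genes changed by 1 on the log2 scale and 96.6% of those changed by 2. Smaller changes may thus go uncalled. Limma voom called 27 of 2879 noncoding genes, 16 higher and 11 lower. The higher ones included 4 genes described above, each with a small difference. LOC105369844 held 15.4, 15.9 and 15.02 per 10000 in WT_PB against 16.8, 16.8 and 16.4 in WT_hyPB, and 11.8, 11.4 and 11.6 in WT_rePB against 15.2, 14.3 and 14.4 in WT_rehyPB. The groups did not overlap in either pair, and the log2 difference was 0.22 with an SE of 0.02 (limma voom, adjusted p = 7.67e-11). LINC-PINT rose by 0.23 (adjusted p = 8.96e-07), MIR100HG by 0.18 (adjusted p = 0.000305) and ERRFI1-DT by 0.21 (adjusted p = 0.00906) in the same limma fit. These p-values take the linked WT_hyPB libraries as separate replicates. Thinned to one file total, LOC105369844 held 15.9 ± 0.257 in WT_PB and 17.3 ± 0.210 in WT_hyPB. It then held 12.7 ± 0.291 in WT_rePB and 14.8 ± 0.441 in WT_rehyPB (SD, n = 3). LINC-PINT, MIR100HG and ERRFI1-DT also kept the order of their means. Thinned WT_rePB libraries still held 424400 to 431089 sites, against 329453 to 383538 in WT_rehyPB.

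The 5 largest rises with the hyperactive transposase were in CECR7, TALAM1, MALAT1, LINC01800 and LOC124901402. Of these, LINC01800 lost its call in 9 and LOC124901402 in 7 of the 12 fits without 1 library. MALAT1 had 16, 13 and 13 sites in WT_PB and 26, 27 and 23 in WT_hyPB, and 18, 23 and 15 in WT_rePB against 19, 20 and 22 in WT_rehyPB. Per 10000 these were 0.373, 0.382 and 0.315 against 0.643, 0.675 and 0.519, and 0.334, 0.412 and 0.282 against 0.577, 0.558 and 0.526, with no overlap in either pair. The log2 difference was 0.72 with an SE of 0.15 for MALAT1 (limma voom, adjusted p = 0.00721) and 0.86 for TALAM1 (adjusted p = 0.00427), which lie on the same sites in part. Leaving out any 1 library kept both calls. CECR7, a lncRNA gene of the cat eye syndrome region on chromosome 22, rose by 1.31 (limma voom, adjusted p = 0.0177) on 2, 5 and 2 sites in WT_PB against 8, 11 and 7 in WT_hyPB, and 3, 4 and 8 in WT_rePB against 5, 9 and 9 in WT_rehyPB. These counts overlap in the re-engineered pair, and 4 of 12 fits without 1 library lost the call. With 2 sites in some parental libraries, CECR7 passed the filter of 3 expected sites with the help of the denser hyperactive libraries. Its p-value is thus given as a description.

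The 5 largest falls were in LOC105378464, LOC105375473, LINC02258, LOC101927872 and SNHG31, with log2 differences from -1.32 to -0.85 and limma voom adjusted p from 0.0267 to 0.0426. LOC105375473 had 5, 7 and 5 sites in WT_PB against 1, 1 and 1 in WT_hyPB, and 7, 8 and 6 in WT_rePB against 2, 2 and 6 in WT_rehyPB. With so few sites in the hyperactive libraries, LOC105375473 passed the filter of expected sites with the help of the denser parental libraries. The p-values of all 5 falls are given as a description. Each of the 5 lost its call in 6 to 9 of the fits without 1 library. With the linked WT_hyPB libraries averaged, 17 noncoding genes were called in place of 27, and 0.644% of all 12574 genes in place of 1.12%.

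With the re-engineered transposase noncoding genes were called about as often as all genes. Limma voom called 3.58% of all genes and 3.65% of noncoding genes, 105 of 2879. Of these 30 were higher and 75 lower, or 1.04% and 2.61% of those tested, against 1.61% higher and 1.97% lower over all genes. With TMM scaling 25 were higher and 86 lower. With the linked libraries averaged 60 were called, 9 higher and 51 lower, and 1.98% of all 12574 genes, 84 higher and 165 lower. Without WT_hyPB replicate 1 or replicate 2 there were 60 and 57. Several genes described above were among the lower ones, with p-values that take the linked WT_hyPB libraries as separate replicates. LOC105369844 fell by 0.30 on the log2 scale (limma voom, adjusted p = 1.05e-15), MIR100HG by 0.28 (adjusted p = 7.03e-09), LINC-PINT by 0.24 (adjusted p = 8.73e-08), ERRFI1-DT by 0.28 (adjusted p = 0.00013) and LINC00973 by 0.31 (adjusted p = 0.000192).

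MSRB3-AS1 held 6.96, 7.44 and 7.23 per 10000 in WT_PB and 7.99, 7.98 and 7.62 in WT_hyPB, against 5.31, 5.10 and 5.05 in WT_rePB and 5.77, 6.05 and 5.85 in WT_rehyPB. The re-engineered libraries all lay below the others, and the log2 difference was -0.45 (limma voom, adjusted p = 2.36e-12). MIR31HG held 2.42, 2.33 and 2.23 in WT_hyPB and 1.76, 1.70 and 1.48 in WT_rehyPB, again without overlap in either pair, and fell by 0.56 (limma voom, adjusted p = 4.81e-06). WT_rePB libraries had larger file totals than the others. Thinned to one file total, MSRB3-AS1 held 7.41 ± 0.0841 in WT_PB against 5.60 ± 0.325 in WT_rePB, and 8.23 ± 0.0717 in WT_hyPB against 5.93 ± 0.243 in WT_rehyPB. LINC-PINT at that depth held 9.77 ± 0.142 against 8.48 ± 0.0888, and 11.1 ± 0.221 against 9.72 ± 0.366, in the same order (SD, n = 3 each). The lower values of both genes were thus seen at matched file totals, where the 12 libraries kept 329453 to 431089 sites. TARID, whose RNA is linked to demethylation at TCF21, and CAV2-DT, divergent to a caveolin gene, fell by 0.50 and 0.46 (limma voom adjusted p = 8.06e-11 and 4.10e-09) and were chosen for mention after their values were seen.

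The 5 largest falls with re-engineering were in LOC105378117, LOC105376097, LINC02989, LOC124900514 and LOC105371002. LOC105376097 (chr9:78861022-78882043), 531 kb from the nearest coding gene, PSAT1, had 16, 20 and 18 sites in WT_PB against 7, 10 and 9 in WT_rePB, and 23, 22 and 19 in WT_hyPB against 7, 6 and 12 in WT_rehyPB. The groups did not overlap, and the log2 difference of -1.31 (SE 0.19, limma voom adjusted p = 1.99e-05) kept its call without any 1 library. LOC105378117 lost its call in 2 and LINC02989 in 1 of 12 such fits, LOC105371002 in 10 of 12 and LOC124900514 in 7 of the 9 in which it passed the filter. The 5 largest rises were in LOC105377094, LINC02395, LINC01446, LOC105374243 and LOC105369851, with log2 differences from 1.26 to 1.49. LINC01446 had 5, 1 and 1 sites in WT_PB and 2, 4 and 2 in WT_hyPB against 9, 6 and 10 in WT_rePB and 4, 7 and 7 in WT_rehyPB, and 3 of 12 fits without 1 library lost the call. The other rises lost it in 1 of 12 (LOC105377094), 2 of 12 (LINC02395), 5 of 8 (LOC105374243) and 3 of 7 fits (LOC105369851).

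**Figure D4:**
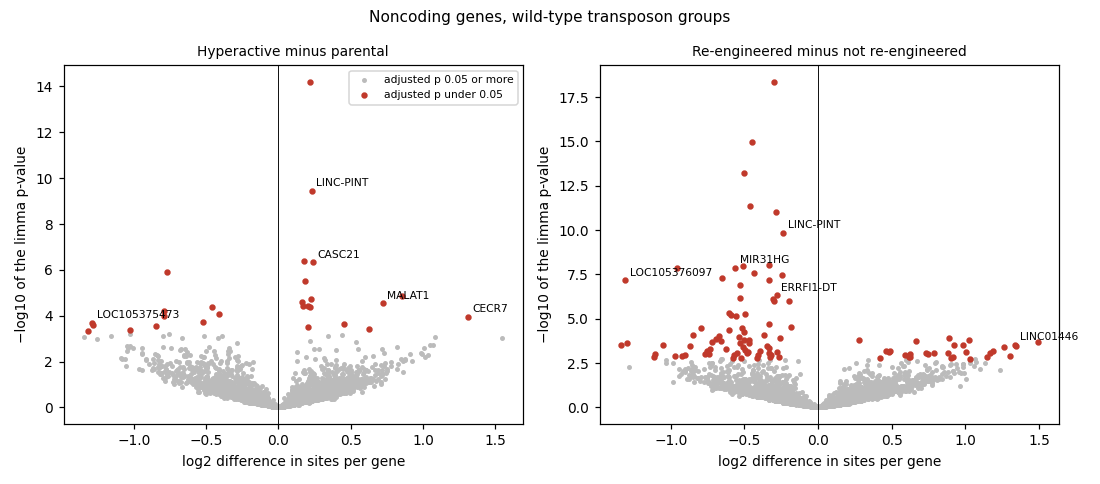
Log2 differences of 2879 noncoding genes in the deep wild-type transposon groups against −log10 of the limma p-value, for hyperactive minus parental and re-engineered minus unmodified transposase; red points have an adjusted p under 0.05. With hyperactive piggyBac 16 genes are red to the right and 11 to the left, and with re-engineered piggyBac 30 and 75.

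Density within 1 kb of noncoding gene starts was higher on average than at 5 to 10 kb in all 9 groups. Around 6572 annotated starts of 5809 genes, WT_PB had 5.88 ± 0.171 sites per Mb and 10000 autosomal sites in the 0.5 kb before the start, against 3.68 ± 0.0410 at 5 to 10 kb upstream (SD, n = 3). The density within 1 kb was 1.45-fold that at 5 to 10 kb in WT_PB and 1.41-fold in WT_hyPB, but 1.17-fold in WT_rePB and 1.28-fold in WT_rehyPB. The re-engineered groups were thus flatter on the wild-type transposon; this ratio was not tested. The ratio was 1.40 in WT_PBat, 1.64 in short_PB and 1.85 in short_hyPB, with 1.89 in sym_rehyPB and 1.26 in sym_rePB. In sym_rePB the 0.5 kb on either side of the start, at 4.32 and 4.73, did not exceed the 5.06 at 5 to 10 kb upstream. In WT_PBat the 0.5 kb after the start was low, at 2.01 ± 0.621 on 3 to 6 sites per library, against 5.13 ± 1.49 in the 0.5 kb before it. The ratio of the upstream to the downstream kilobase was 1.78 ± 0.406 in WT_PBat and 1.05 ± 0.0111 in WT_PB.

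**Figure D5:**
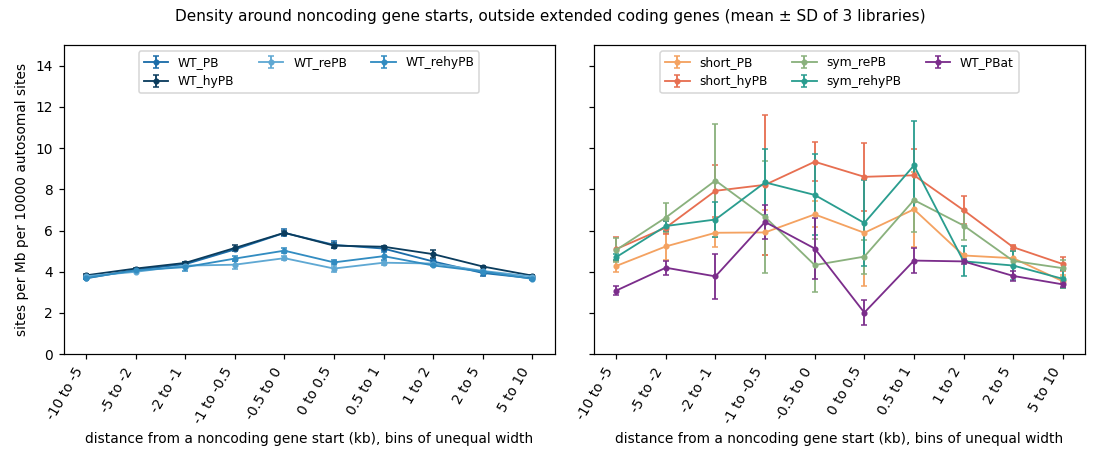
Sites per Mb and 10000 autosomal sites by distance from noncoding gene starts in kb, negative upstream, mean ± SD of 3 libraries, with the deep groups on the left and the shallow groups on the right. WT_PB and WT_hyPB rise to about the same height at the start, WT_rePB is flatter, and WT_PBat is at 2.01 just downstream of the start.

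The strand of insertions relative to the noncoding gene was close to even in most groups. Insertions on the gene's own strand made up 46.9% ± 0.191 of positions in WT_PB, 46.2% ± 0.192 in WT_hyPB and 48.7% ± 0.133 in WT_PBat, over 11145 noncoding genes of known strand. The share was under 50% in 26 of 27 libraries. In coding genes it was lower, at 35.6% ± 0.801 in WT_PB and 40.6% ± 0.664 in WT_PBat, and only 1 of 27 libraries had a lower share in noncoding than in coding genes. The strand is that of the peak in the deposited lists, and what it says of the direction of the transposon was not given.

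Well-known lncRNAs in a list chosen with results of these data known were denser targets than noncoding genes at large. Of the 59 in this list, 43 had free bases and 27 had at least 10 kb of them, all with a site. Their median density in WT_PB was 0.766 against 0.253 for all 6058 genes. Summed over their length the density was 1.09 against 0.330 in WT_PB and 5.00 against 0.174 in WT_PBat, with LINC-PINT, NEAT1 and MIR31HG the highest in WT_PBat. Some members were rarely hit: MIR99AHG, another microRNA host, had 0.0176 ± 0.00724 in WT_PB and SNHG14 0.00569 ± 0.00985. The list holds the genes of the MYC region and other dense genes described above, such as LINC-PINT, so its higher density is a description. Its median density in WT_PBat was 0.163, against 0 for all 6058 genes.

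Of 30 named lncRNAs tested in the deep groups, 5 were higher and none lower with hyperactive piggyBac, and 0 were higher and 4 lower with re-engineered piggyBac, all by limma voom. Over all genes 0.429% were higher and 0.692% lower with the first, and 1.61% and 1.97% with the second. At an unadjusted p under 0.05 the list's counts were 9 and 0, and 1 and 9, while 1705 and 2353 of all 12576 genes passed in either direction. The list was chosen with results of these data known. The median log2 difference was 0.18 and -0.11, against -0.01 for all noncoding genes in each comparison. Host genes of microRNAs had a median density of 0.336 in WT_PB over 45 genes, 42 of them with a site, and 0 of 29 tested were higher and 4 lower with re-engineering (2 and 6 at an unadjusted limma p under 0.05). Antisense genes had a median of 0.340 over 381 genes, LINC genes 0.234 over 1275 and LOC genes 0.241 over 3901. With re-engineering 5 antisense genes were higher and 7 lower of 262, 8 LINC genes were higher and 12 lower of 620, and 15 LOC genes were higher and 41 lower of 1689, to be read against the 1.61% higher and 1.97% lower over all genes. Only 3 small nucleolar RNA host genes had 10 kb of free length, with a median density of 0.124.

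Positions recurred between replicates about as often in noncoding genes as elsewhere. In WT_PB 31.7% ± 1.69 of member positions were found again in another replicate, and 31.0% ± 1.68 of other autosomal positions. In short_hyPB the shares were 37.8% ± 0.581 and 33.0% ± 1.28, the widest gap among groups without linked libraries. Of the noncoding positions of the shallow groups, 79.7% in short_PB and 87.7% in short_hyPB were also hit in a deep piggyBac group, beside 79.6% and 86.1% of their other positions. In sym_rePB the shares were 86.2% and 85.1%, and in sym_rehyPB 89.2% and 85.0%.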

How the data were processed

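Each library came as a list of peaks that the authors called separately per sample, with a summed coverage and a maximum coverage (peak height) per peak. The deposited coverage values are signal with no scaling to library size that the files show, and all listed heights were 5 or more. A column with 1 constant per file was taken as the library's mapped reads, which no label states. The submitters' processing notes name cutadapt 3.4, HISAT2 2.2.1.0 and the builds hg38 and GRCh38.p5; the peak caller and any removal of duplicates are not given in the sources used here.

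Genes came from RefSeq (GRCh38.p14). Heights were used only to filter or thin peaks, and distinct positions were counted. Shares were compared by exact permutation of libraries within pairs of groups. Sites per gene were fitted with limma 3.58.1 (voom, lmFit, eBayes; R 4.3.3) over all genes with at least 3 expected sites in the smallest library, with the number of autosomal sites as library size and 0.5 added before log2, and called at an adjusted p under 0.05. The fits were tested on simulated data. Other steps used Python 3.11.15.

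Genes were named by a rule: the 10 densest over the 9 groups, the 3 densest in each group, the 5 with most sites, and in each gene-level comparison the 5 largest rises and falls among called genes. Some genes that only the rule for single groups named are not described. The members, lists and tests were chosen with earlier results of these data known. The alternatives tried were other height and site minimums, a 10-kb extension of coding genes, TMM scaling, libraries thinned to one file total, linked libraries averaged, a replicate block, and each library left out. Leaving out immune receptor segments and leaving out LINC-PINT were added after seeing the data. Replicate numbers did not pair the samples: deviations of same-numbered deep libraries correlated between -0.022 and 0.015.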

Additional observations from a re-analysis of the deposited data

Results flagged for a closer look

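The effects of some changes differed between the pairs of groups that carry them. The test permuted libraries within pairs after the mean effect was removed, with adjustment over 12 tests. Since the mean effect was estimated, the p-values are approximate. They also take the linked WT_hyPB libraries as separate replicates. The noncoding share differed by 1.46 points between the highest and lowest of the 4 hyperactive pairs (adjusted permutation p = 0.0003). The difference was 1.11 points on the short transposon and from -0.351 to 0.0812 in the others. The 2 re-engineered pairs differed by 0.408 points (adjusted permutation p = 0.012), with 0.0463 for the parental and -0.362 for the hyperactive transposase. The 2 short-transposon pairs differed by 1.03 points (adjusted permutation p = 0.012), with -1.45 for piggyBac and -0.42 for hyperactive piggyBac.

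Among sites outside coding genes, the hyperactive pairs differed by 2.99 points (adjusted permutation p = 0.00015), with 2.37 points on the short transposon and -0.624 on the symmetric one. The short pairs differed by 2.35 points (adjusted permutation p = 0.012), with -0.561 and 1.79. The share near gene ends differed by 1.69 points between the short pairs (adjusted permutation p = 0.04), at 2.33 and 4.02 points. The hyperactive and short contrasts share the short_hyPB libraries, whose high values enter both.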

How the results depend on the processing

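Of 123 tests of shares under other settings, 105 kept direction and side of the threshold, as did 215 of 216 without 1 library. The noncoding share difference for the short transposon lost its call at height 10 or more (-0.787), with a 10-kb extension (-0.966) and with the replicate block (-0.935). That for the symmetric transposon turned to 0.661 at height 10 or more and passed the threshold in this opposite direction (adjusted exact permutation p = 0.018). Outside coding genes, the short difference turned to -2.53 at matched file totals and -0.311 without LINC-PINT, and the symmetric one became 0.590 and -0.0222. Near gene ends, the short and symmetric differences turned to -0.284 and -0.0388 at matched file totals, the symmetric one was 4.88 at height 10 or more with no call, and the hyperactive one gained a call there (2.88). The cause was not tested.

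The replicate numbers did not pair the samples. A replicate block left values as they were but cannot give an exact p below 0.03125 for 2 pairs (adjusted 0.0804), so no share kept its call: -0.935 and -1.39 for noncoding share, short and symmetric; -0.672 and 1.502 outside coding genes, re-engineered and symmetric; -0.527, 3.17 and 3.22 near ends, re-engineered, short and symmetric. With the block limma called 27 noncoding genes for hyperactive and 96 for re-engineered.

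Noncoding genes called went from 27 to 17 (hyperactive) and from 105 to 60 (re-engineered) with linked libraries averaged. With TMM scaling the 4 calls among shallow piggyBac groups became 0 and the 8 for symmetric 4. Minimums of 10 and 1 expected sites gave 3 and 49 for short, 2 and 35 for WT_PBat against WT_PB, and 3 and 23 against short_PB, and a minimum of 1 gave 21 for symmetric; height 10 or more gave 2 for each WT_PBat comparison. Filters left too few genes to fit among shallow piggyBac groups and for symmetric at a minimum of 10 or height 10, for short at height 10, and at matched file totals for short, symmetric and WT_PBat against WT_PB. SNHG31 turned to 0.0445 at height 10 or more. TMM moved the median of all genes from 1.04 to -0.02 (short), 2.48 to 0.03 (symmetric), 1.97 to 0.00 (WT_PBat against WT_PB) and 0.87 to 0.10 (against short_PB).

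Without 1 library the differences ranged, for hyperactive, re-engineered, short, symmetric, WT_PBat against WT_PB and against short_PB: noncoding share 0.0597 to 0.175, -0.181 to -0.129, -1.03 to -0.797, -1.43 to -1.32, -4.90 to -4.64 and -3.59 to -3.12; outside coding genes 0.367 to 0.580, -0.709 to -0.639, 0.381 to 0.889, 1.40 to 1.63, 2.72 to 5.03 and 3.28 to 5.59; near ends 0.525 to 0.972, -0.577 to -0.447, 2.92 to 3.41, 2.71 to 3.60, 4.32 to 4.96 and 1.99 to 2.63. The hyperactive one near ends gained a call without sym_rehyPB replicate 2. Noncoding genes called ranged from 15 to 32 (lowest without WT_hyPB replicate 2), 57 to 118, 11 to 14, 6 to 8, 9 to 9 and 10 to 14, and from 1 to 5 among shallow piggyBac groups. Depth limits the shallow groups: a gene with no site in 2795 to 9077 may hold insertions that were not listed.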
